A study of Mus musculus with 4 samples.

Results

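The 4 Dlx genes of forebrain inhibitory neurons, Dlx1, Dlx2, Dlx5 and Dlx6, and the DLX binding motifs were examined in single-nucleus chromatin accessibility profiles of mouse cortex and hippocampus. A peak belonged to a gene where it overlapped the annotated gene or the 2 kb before its start, and the stretches between Dlx1 and Dlx2 and between Dlx5 and Dlx6 were included. Of 445330 peaks in 4 libraries, 45 met this rule, and 5 of the 579 motifs had a name beginning with DLX. All nuclei came from mice of genotype Dlx6aCre;Sun1/sfGFP at postnatal day 30 and were sorted for GFP, so every group had passed the same gate. There were 2 libraries from cortex and 2 from hippocampus, named replicates 1 and 2 of each area. The labels gave no number of animals, so p-values measure the spread between libraries, which may be technical. They also gave no promoter for the Cre. Dlx DNA in a transgene that matches the mouse genome would be counted with the endogenous locus, and its part in the values was not tested.

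Dlx proteins are homeobox transcription factors that act in the ganglionic eminences, where they promote migration and GABAergic differentiation of interneurons and striatal neurons. The genes lie in convergent pairs, Dlx1 with Dlx2 and Dlx5 with Dlx6, and each pair shares enhancers in the stretch between its genes. Dlx2 and Dlx1 act first in progenitors, and Dlx5 and Dlx6 follow in differentiating cells, partly under control of the first pair. The DNA-binding domain of this family recognises a core of TAATTA, which reads the same on both strands. RNA of Dlx1 and Dlx6 is still made in adult interneurons, and the antisense RNAs Dlx1as and Dlx6os1 overlap the loci.

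A nucleus counted as having Lhx6 counts when it held a cut site in any of 3 common regions at Lhx6 after thinning to 2000 cut sites in regions shared by all libraries. Lhx6 is a homeobox gene that marks interneurons from the medial ganglionic eminence (MGE). A cut site is an end of a DNA fragment left by the transposase, and each library had its own peak calls. The libraries held 2355 to 5576 nuclei, 15306 in all, and 32005984 to 117290059 cut sites in peaks. Median cut sites per nucleus were 47236 and 7352 in cortex replicates 1 and 2 and 12685.5 and 14917 in hippocampus replicates 1 and 2, so the cortex libraries were the deepest and the shallowest. Cortex replicate 2 also had the fewest peaks (61965) and the least sequence in peaks (33.4 Mb, against 62.1 to 101 Mb). Between 46 and 87 barcodes of a library also occurred in another. Summed over 4 pan-GABA markers, Gad1, Gad2 and Slc32a1 among them, accessibility was 534 to 844 CPM (TMM-normalised counts-per-million) in cortex and 870 to 1007 CPM in hippocampus. The excitatory genes Neurod6, Neurod2 and Tbr1 had no peak region shared by all libraries.

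The following sequences of GRCm38 are shown because they hold the Dlx family's own core motif, or lack it, inside the open chromatin of the Dlx genes. Capitals mark TAATTA, and the build is the one in the submitters' processing notes. The first pair of windows was chosen after the values were seen, as the closest 2 matches of each intergenic region among those in a peak of all 4 libraries. Pairs in peaks of fewer libraries lay closer. The first bases of the 2 matches shown lie 55 bases apart at Dlx1-Dlx2, in an intron of Dlx1as, and 56 bases apart at Dlx5-Dlx6, in an exon of Dlx6os1. The third sequence is the RefSeq promoter of Dlx2, the 250 bases before its start, and the last 2 are the middles of the densest region of each locus, overlapping a coding exon of Dlx2 and between annotated genes.
Dlx1-Dlx2 intergenic pair, chr2:71536013-71536312, plus strand: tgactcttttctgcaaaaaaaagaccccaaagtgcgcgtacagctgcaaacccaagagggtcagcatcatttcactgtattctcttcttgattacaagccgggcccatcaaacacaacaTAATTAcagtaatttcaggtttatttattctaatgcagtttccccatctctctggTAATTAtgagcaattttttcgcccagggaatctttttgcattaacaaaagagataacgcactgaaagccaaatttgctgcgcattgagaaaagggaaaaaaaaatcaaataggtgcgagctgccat
Dlx5-Dlx6 intergenic pair, chr6:6869483-6869782, plus strand: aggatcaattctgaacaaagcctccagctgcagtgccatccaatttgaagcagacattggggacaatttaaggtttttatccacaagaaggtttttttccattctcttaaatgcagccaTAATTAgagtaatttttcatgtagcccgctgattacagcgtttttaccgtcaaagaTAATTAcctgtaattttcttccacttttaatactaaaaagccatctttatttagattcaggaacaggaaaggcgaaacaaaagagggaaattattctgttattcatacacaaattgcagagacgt
Dlx2 promoter, chr2:71546755-71547004, minus strand: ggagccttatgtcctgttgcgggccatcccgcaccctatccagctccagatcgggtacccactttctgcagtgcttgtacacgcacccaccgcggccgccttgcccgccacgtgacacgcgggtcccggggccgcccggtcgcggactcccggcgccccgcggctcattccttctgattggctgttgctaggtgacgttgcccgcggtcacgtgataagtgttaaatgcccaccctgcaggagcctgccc
Dlx2 gene region middle, chr2:71545527-71545826, plus strand: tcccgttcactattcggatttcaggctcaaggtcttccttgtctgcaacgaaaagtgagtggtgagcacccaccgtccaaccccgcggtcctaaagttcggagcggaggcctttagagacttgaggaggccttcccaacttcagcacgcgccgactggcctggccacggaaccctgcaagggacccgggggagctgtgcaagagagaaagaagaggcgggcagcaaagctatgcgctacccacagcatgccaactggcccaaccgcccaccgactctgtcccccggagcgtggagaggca
Dlx5-Dlx6 intergenic middle, chr6:6872895-6873194, plus strand: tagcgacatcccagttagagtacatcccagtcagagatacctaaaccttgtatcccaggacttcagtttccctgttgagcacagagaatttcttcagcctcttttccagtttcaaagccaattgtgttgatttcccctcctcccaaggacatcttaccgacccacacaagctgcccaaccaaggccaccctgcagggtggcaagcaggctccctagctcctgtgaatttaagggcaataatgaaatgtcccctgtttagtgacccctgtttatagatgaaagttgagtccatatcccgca
The Dlx2 promoter was open in all 4 libraries and held no TAATTA. Its GC content was 66.4%, higher than in 85.2% of 32851 RefSeq promoters, and its CpG dinucleotides reached 0.890 of the number its base composition gives, higher than in 87.6%. For comparison, 4.84% of all promoter windows of this length held TAATTA. The middle of the Dlx5-Dlx6 region lay in a peak of 1 library and the Dlx2 middle in a peak of 3, with no match in either. The middle of the Dlx5 gene region, in an intron, also held none and is not printed. The Dlx1 promoter and region middle fell in an annotated untranslated region and are not shown, and Dlx5 and Dlx6 were matched to no entry of the promoter table.

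The loci stood out for the breadth of their open chromatin. Merged across libraries, the 45 peaks formed 7 regions, of which 6 held a peak of every library. These 6 common regions, among 46698 in all, were the Dlx1 gene region (chr2:71524649-71533422), the Dlx1-Dlx2 intergenic region (chr2:71533923-71543467), the Dlx2 gene region (chr2:71544029-71547323), the Dlx6 gene region (chr6:6857789-6867927), the Dlx5-Dlx6 intergenic region (chr6:6868964-6877124) and the Dlx5 gene region (chr6:6878097-6882861). Each gene region spanned the gene's start and most of its body, for Dlx1 at chr2:71528113-71533981, Dlx2 at chr2:71543408-71546754, Dlx6 at chr6:6863334-6868568 and Dlx5 at chr6:6877805-6882085. The seventh region, a peak of 414 bp upstream of Dlx2, was missing in cortex replicate 2 and entered no test. The Dlx6 gene region of 10139 bp was longer than all but 73 of the common regions, and the Dlx1-Dlx2 intergenic region of 9545 bp than all but 88. The median common region had 1133 bp, and the shortest Dlx region, that of Dlx2, had 3295 bp.

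Single peaks showed the same breadth in the deep libraries. In cortex replicate 1 a peak of 10139 bp covered the Dlx6 gene region whole, and 35 of that library's 127726 peaks were longer. In hippocampus replicate 2 the Dlx1 peak of 8469 bp was exceeded by 23 of 98419 peaks. In cortex replicate 2 the widest Dlx peak had 4233 bp, again at Dlx1, and 57 of 61965 peaks were longer. That library split the loci into 16 peaks, against 7, 10 and 12 in cortex replicate 1 and hippocampus replicates 1 and 2.

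**Figure D1:**
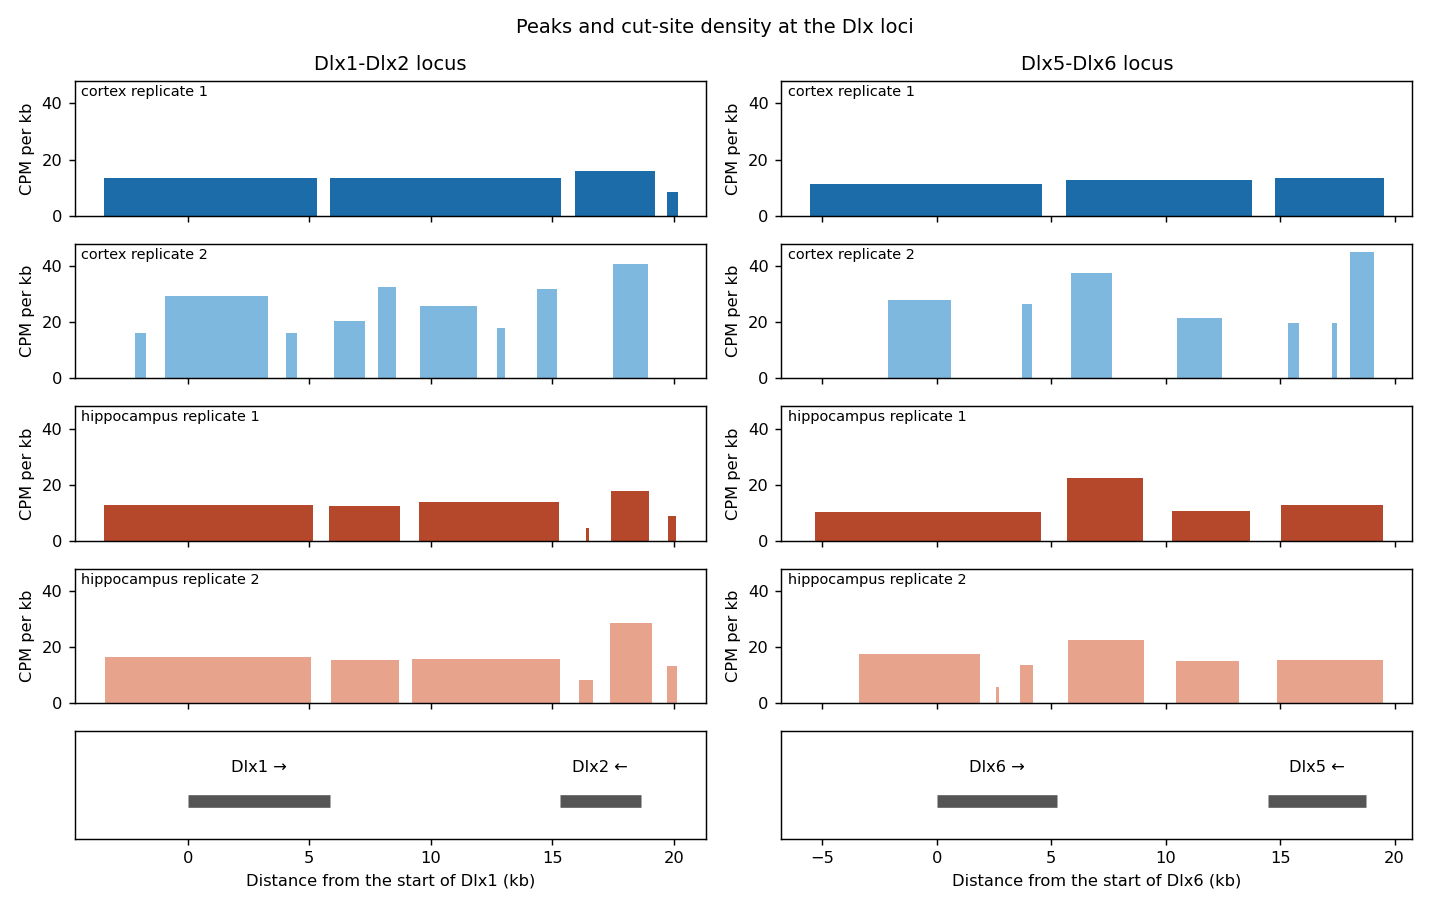
Peaks at the Dlx1-Dlx2 locus (left) and the Dlx5-Dlx6 locus (right) in the 4 libraries. Each bar is a peak, its width the peak's extent in kb from the gene's annotated start and its height the CPM per kb of peak, and grey bars at the bottom are gene bodies with arrows for strand. Cortex replicate 2 has 16 peaks of at most 4233 bp, and cortex replicate 1 has 7, the widest of 10139 bp and the narrowest of 414 bp.

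Density within the loci was uneven, and its highest points recurred between libraries. In CPM of the library's cut sites per kb of peak, the densest Dlx peak was the peak over the Dlx5 start in cortex replicate 2 (chr6:6881386-6882450, 45.1 CPM per kb) and the peak over the Dlx2 start in hippocampus replicate 2 (chr2:71545504-71547221, 28.5 CPM per kb) and in cortex replicate 1 (chr2:71544029-71547323, 16.1 CPM per kb). In hippocampus replicate 1 it was an intergenic peak beside Dlx6 (chr6:6869026-6872346) with 22.3 CPM per kb, denser than 98.0% of that library's peaks. The same stretch held 22.5 CPM per kb in hippocampus replicate 2 and, in a narrower peak of 1788 bp, 37.4 CPM per kb in cortex replicate 2. It contains the Dlx5-Dlx6 sequence with 2 TAATTA matches given above.

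Together the Dlx peaks held 0.0582%, 0.0601%, 0.0527% and 0.0627% of the cut sites of cortex replicates 1 and 2 and hippocampus replicates 1 and 2, in 0.0462%, 0.0625%, 0.0398% and 0.0592% of the sequence in peaks. The share of cut sites was thus above the share of sequence in 3 libraries and below it in cortex replicate 2. Densities of the 6 regions, in TMM-normalised CPM per kb of covered peak and averaged over libraries, ran from 20.0 (Dlx6 gene region) to 29.5 (Dlx2 gene region), against a median of 17.4 over all common regions. These ranked above 64.7% to 86.3% of common regions, while their summed levels ranked above 93.6% to 99.9%. The order was Dlx2, Dlx5-Dlx6 intergenic (23.6), Dlx5 (23.0), Dlx1 (21.2), Dlx1-Dlx2 intergenic (20.8) and Dlx6. Libraries spread more widely than neighbours in this order differed, for example from 16.3 to 29.5 for the Dlx1 gene region. Cortex replicate 2 was the densest and cortex replicate 1 the least dense library for all 6.

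TAATTA was frequent at 3 of the 6 regions. It occurred 19 times in the 6 common regions, with 13 matches inside a peak of all 4 libraries, 4 inside a peak of 3 and 2 inside a peak of 1. The Dlx5-Dlx6 intergenic region held 6 matches (0.735 per kb), the Dlx1-Dlx2 intergenic region 6 (0.629 per kb) and the Dlx1 gene region 5 (0.570 per kb), against 0.195 per kb over all common regions. Among common regions of like length these rates were higher than in 98.6%, 97.9% and 96.3%. TAATTA holds only A and T, and 7.36%, 19.7% and 38.7% of the same like-length regions had a lower GC content. The part of base composition in these rates was not tested. The Dlx2 and Dlx6 gene regions held 1 match each and the Dlx5 gene region none. Of all common regions, 22.2% held at least 1 match. A match is a run of letters and not a measured binding site. GC content ran from 46.7% in the Dlx5-Dlx6 intergenic region to 60.6% in the Dlx2 gene region, against a median of 50.3%.

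Gene values summed the common regions at each gene, so Dlx5 and Dlx6 each rested on their own gene region and the Dlx1-Dlx2 intergenic region, which touches both gene ends, entered both Dlx1 and Dlx2. Mean levels were 334 CPM for Dlx1, 233 for Dlx2, 135 for Dlx6 and 82.9 for Dlx5. Of the 14622 protein-coding genes tested, 99.0%, 97.4%, 90.0% and 74.2% had lower levels than these, and the median gene had 50.8 CPM. These sums grow with the length of open chromatin, and the order of the genes is given per kb above.

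Between hippocampus and cortex no Dlx gene or region passed the edgeR test described below. The libraries of the areas nonetheless did not overlap for the Dlx1 gene and for some regions. Dlx1 stood at 333 and 309 CPM in cortex replicates 1 and 2 and at 357 and 338 CPM in hippocampus replicates 1 and 2. The hippocampal libraries were both above the cortical ones, by 1.08-fold (log2 difference 0.11, 95% interval -0.35 to 0.58). Dlx2 stood at 247 and 222 CPM in cortex and 228 and 233 CPM in hippocampus, and its groups overlapped (log2 difference -0.03, interval -0.47 to 0.41). Dlx5 had 87.1 and 68.1 CPM in cortex and 91.0 and 85.3 CPM in hippocampus, a log2 difference of 0.18 (interval -0.23 to 0.60). Dlx6, the gene after which the Cre line is named, had the widest spread, 155 and 98.6 CPM in cortex and 162 and 123 CPM in hippocampus (log2 difference 0.17, interval -0.42 to 0.76). For Dlx5 and Dlx6 the lowest library was cortex replicate 2, and the groups overlapped.

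By edgeR's quasi-likelihood test with Benjamini-Hochberg adjustment, 0 of the 4 genes passed an adjusted p of 0.05, beside 0% of all 14622 genes (0 genes). Unadjusted p was under 0.05 for 511 genes and for none of the 4, and DESeq2 called 21 genes, none of them a Dlx gene. Groups that did not overlap, with hippocampus higher, were seen in 1 of 4 Dlx genes (Dlx1) against 13.3% of all genes, and 13.3% had hippocampus lower. In such sums, fewer nuclei with open Dlx chromatin and less accessibility per nucleus cannot be told apart. Summed lineage markers were 354 to 765 CPM (MGE, 6 genes) and 124 to 202 CPM (caudal ganglionic eminence, CGE, 5 genes) in cortex and 414 to 503 CPM and 204 to 224 CPM in hippocampus, and their part in the Dlx values was not tested.

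The regions gave the same picture at finer scale. The Dlx5-Dlx6 intergenic region, which holds the pair's shared enhancers, had 126 and 119 CPM in cortex and 157 and 145 CPM in hippocampus. It had the highest hippocampal excess of the 6, 1.23-fold (log2 difference 0.30, interval -0.34 to 0.95, adjusted p = 0.98 by edgeR). The Dlx1 gene region had 143 and 151 CPM in cortex and 156 and 175 CPM in hippocampus, a log2 difference of 0.17. Its intergenic neighbour had 159 and 158 CPM against 164 and 173 CPM (0.09). The Dlx5 gene region had 79.2 and 68.3 CPM against 81.6 and 88.1 CPM (0.20). In these 4 regions both hippocampal libraries were above both cortical ones, against 21.4% of all 46698 common regions (15.4% had hippocampus wholly lower). For the Dlx5 gene region this depended on scaling. The Dlx5 gene rests on the same counts, scaled over genes and not regions, and there the areas overlapped (87.1 and 68.1 CPM against 91.0 and 85.3 CPM).

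Libraries overlapped in the other 2 regions. The Dlx2 gene region had 65.2 and 64.3 CPM in cortex and 40.4 and 67.1 CPM in hippocampus, with hippocampus replicate 1 alone low (log2 difference -0.27). The Dlx6 gene region had 141 and 98.8 CPM in cortex and 146 and 127 CPM in hippocampus (0.19), with cortex replicate 2 low. For this comparison edgeR called 0 of the 6 regions and 0% of all regions, with 3803 regions but none of the 6 at an unadjusted p under 0.05. DESeq2 called 352 regions and none of the 6. Peak width differed between libraries: cortex replicate 2 covered 32.3% to 58.5% of each region with its peaks and cortex replicate 1 covered 99.8% to 100%. Levels did not always follow width. The Dlx1 gene region had 143 CPM with 100% covered in cortex replicate 1 and 151 CPM with 58.5% covered in cortex replicate 2. An offset for covered length assumes that counts grow in proportion to it. With covered length as an offset, the excess at the Dlx5-Dlx6 intergenic region was gone (0.00), and the other 3 of the 4 regions turned to -0.24 (Dlx1 gene), -0.23 (Dlx1-Dlx2 intergenic) and -0.55 (Dlx5 gene). The Dlx6 gene region also turned, to -0.29, the Dlx2 gene region had -0.27, and the genes Dlx1, Dlx2, Dlx6 and Dlx5 had -0.23, -0.25, -0.29 and -0.53. None passed the test under either setting.

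**Figure D2:**
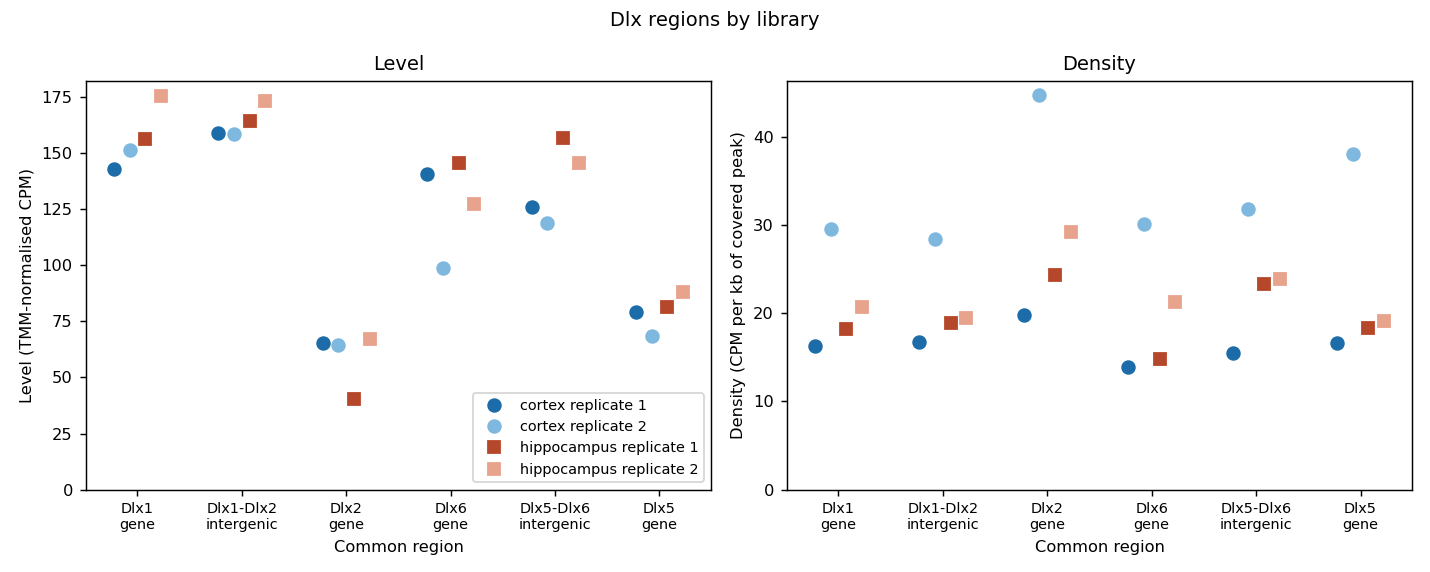
Level (left, TMM-normalised CPM) and density (right, CPM per kb of covered peak) of the 6 Dlx regions. Each point is a library, circles for cortex and squares for hippocampus. Levels of the Dlx5-Dlx6 intergenic region are 119 to 126 CPM in cortex and 145 to 157 CPM in hippocampus, while on the density scale cortex replicate 2 is highest in all 6 regions.

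Dlx accessibility was present in most nuclei at a matched depth. After thinning to 2000 cut sites in common regions, 73.7% and 65.3% of the nuclei of cortex replicates 1 and 2 and 67.9% and 67.3% of those of hippocampus replicates 1 and 2 held a cut site in any of the 6 regions. Nuclei under that depth were left out, 0 and 242 in cortex and 398 and 35 in hippocampus. The hippocampal mean was 1.90 points below the cortical mean (difference -1.90, exact permutation p = 1, two-sided, when 0.333 is the smallest p that 2 against 2 libraries allow). Without thinning, means were 89.9% in cortex and 85.3% in hippocampus. Single regions held a cut site in fewer nuclei, with area means of 23.7% in both areas for the Dlx1 gene region. For the Dlx2 gene region the means were 10.5% in cortex and 8.50% in hippocampus, and hippocampus replicate 1 again was lowest at 6.78% (Wilson 95% interval 6.13% to 7.50%, counting error only).

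Nuclei led by glial marker genes gave a level to read these shares against. This comparison was added after the data had been seen. In each library 76 to 139 nuclei had oligodendrocyte-lineage counts (Mbp, Sox10, Olig1 and Pdgfra among the markers) that exceeded 2 times the summed counts of Gad1, Gad2 and Slc32a1 by more than 4. They were set against 2244 to 4287 nuclei with a cut site in Gad1, Gad2 or Slc32a1, which make or load GABA. At Dlx1-Dlx2 the glial-led nuclei had 186, 265, 220 and 128 CPM in cortex replicates 1 and 2 and hippocampus replicates 1 and 2, and the other nuclei 384, 382, 384 and 417 CPM. The level was lower in 4 of 4 libraries, on average 2.03-fold (range 1.44-fold to 3.26-fold, exact sign-flip permutation p = 0.125, the smallest that 4 libraries allow). At Dlx5-Dlx6 the values were 222, 253, 310 and 109 CPM against 360, 291, 406 and 362 CPM, lower in 4 of 4 libraries by 1.69-fold on average (range 1.15-fold to 3.33-fold, exact p = 0.125).

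The share of glial-led nuclei with a Dlx cut site at matched depth was 47.4%, 59.1%, 38.9% and 22.3%, below the 75.0%, 68.1%, 73.1% and 72.7% of nuclei with a GABA gene cut site in each library. Before thinning, their median depths were 23500, 7171.5, 5303 and 8282 cut sites against 38000.5, 7635, 9843 and 13450. By region, 4 of 6 had lower levels in glial-led nuclei of 4 of 4 libraries, and the Dlx5-Dlx6 intergenic and Dlx5 gene regions of 3 of 4. The gap in share was narrowest in cortex replicate 2 and widest in hippocampus replicate 2. The part of doublets and of free DNA in the glial-led values was not tested.

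**Figure D3:**
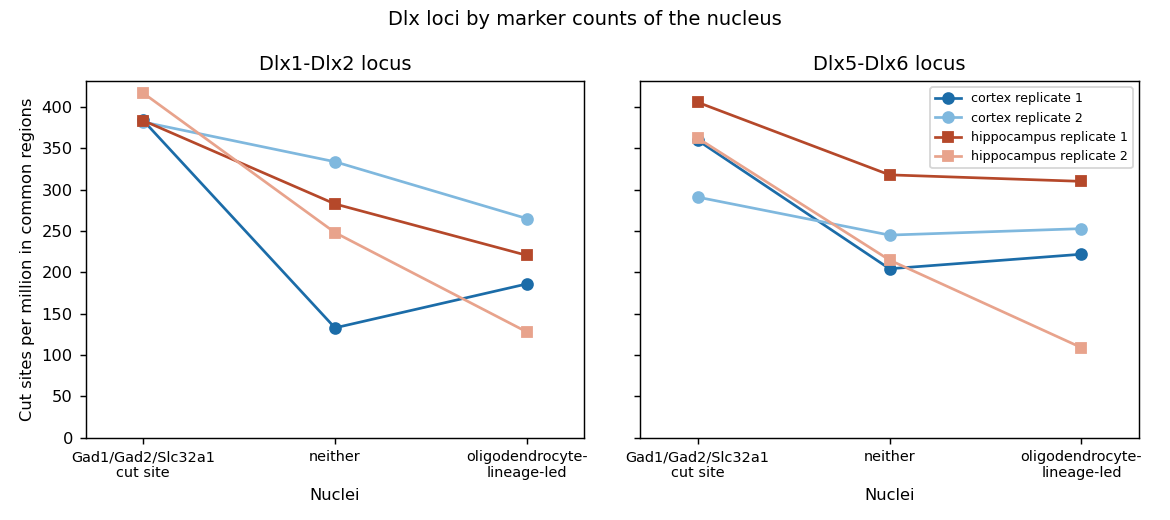
CPM in common regions at the Dlx1-Dlx2 locus (left) and the Dlx5-Dlx6 locus (right) for 3 kinds of nuclei. Each line joins the values of a library, circles for cortex and squares for hippocampus. At Dlx1-Dlx2 nuclei with a Gad1, Gad2 or Slc32a1 cut site lie at 382 to 417 CPM and oligodendrocyte-lineage-led nuclei at 128 to 265 CPM.

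No Dlx gene or region passed the test between nuclei with and without Lhx6 counts. Of the nuclei deep enough, 22.7% (535) and 8.26% (326) in cortex replicates 1 and 2 and 22.5% (1165) and 14.8% (467) in hippocampus replicates 1 and 2 held Lhx6 counts. A nucleus without them may still use the gene, since thinned counts are sparse, and nuclei with Lhx6 counts were slightly deeper (medians 39577, 7691, 9752 and 13408 against 36444.5, 6994, 8948 and 12345.5 cut sites). Markers of the MGE lineage followed the split. Of its 5 other tested markers 3 were higher with Lhx6 counts (Sox6 and Sst among them) and 3 of 5 CGE markers were lower (Adarb2, Prox1 and Sp8), against 1.94% and 1.57% of all genes. None of the 4 pan-GABA and 5 oligodendrocyte-lineage markers passed the test. Of 3 microglial markers Csf1r was higher, by 0.23 on the log2 scale, and the microglial sum was 219 to 269 CPM with and 217 to 266 CPM without Lhx6 counts. Its part in the Dlx values was not tested.

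The 4 Dlx genes showed no such split. Dlx1 had 311, 293, 365 and 360 CPM in nuclei with Lhx6 counts of cortex replicates 1 and 2 and hippocampus replicates 1 and 2, and 337, 312, 357 and 333 CPM in the others. It was lower with Lhx6 counts in both cortical libraries and higher in both hippocampal ones. Dlx5 had 85.4, 64.9, 86.9 and 85.0 CPM with and 87.1, 68.2, 92.7 and 85.3 CPM without, lower in 4 of 4 libraries but by little (log2 difference -0.05, interval -0.15 to 0.05). Log2 differences of Dlx1, Dlx2 and Dlx6 were -0.01 (interval -0.07 to 0.05), 0.02 (-0.04 to 0.09) and 0.02 (-0.06 to 0.09). By edgeR with libraries as blocks, 0 of the 4 genes passed the Benjamini-Hochberg threshold, against 3.52% of 14620 genes. The widest interval, that of Dlx5, ran from -9.58% to 3.59%. Dlx6 shared the pattern of Dlx1, with 151 and 89.7 CPM with and 155 and 99.1 CPM without in cortex, and 171 and 130 CPM with and 161 and 122 CPM without in hippocampus.

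At the regions, 0 of 6 passed the test against 4.57% of 46692 regions. Region differences ran from -0.08 (Dlx1 gene region, interval -0.21 to 0.04) to 0.03 (Dlx1-Dlx2 intergenic region, interval -0.06 to 0.11) on the log2 scale. The Dlx1 gene region had 133 and 121 CPM with Lhx6 counts in cortex replicates 1 and 2, against 151 and 158 CPM without. In hippocampus replicates 1 and 2 it had 159 and 180 CPM with and 153 and 169 CPM without. The difference was thus negative in both cortical libraries and positive in both hippocampal ones. Its interaction with brain area, the hippocampal minus the cortical log2 difference, was 0.33 (interval 0.16 to 0.50, edgeR adjusted p = 0.028), and 1 of 6 Dlx regions passed, against 0.709% of all regions in either direction and 0.696% in this one.

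This interaction did not hold under most other settings. With a second random thinning, added after the data were seen, it was 0.06 (adjusted p = 1.00), and at a depth of 5000 it was 0.13 (adjusted p = 0.77). Status from all counts gave 0.19 (adjusted p = 0.51) and DESeq2 gave 0.33 (adjusted p = 0.48). Leaving out cortex replicate 2, hippocampus replicate 1 or hippocampus replicate 2 gave 0.26, 0.35 and 0.32 with edgeR adjusted p of 0.25, 0.37 and 0.64, and leaving out cortex replicate 1 gave 0.46 (adjusted p = 0.014). For the whole Dlx1 gene the interaction was 0.18 (interval 0.06 to 0.29, adjusted p = 0.46), and 0 of 4 genes passed, against 0.123% of all genes. The cortical libraries alone gave -0.27 for the Dlx1 gene region (adjusted p = 0.0073), an alternative also added after the data were seen.

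**Figure D4:**
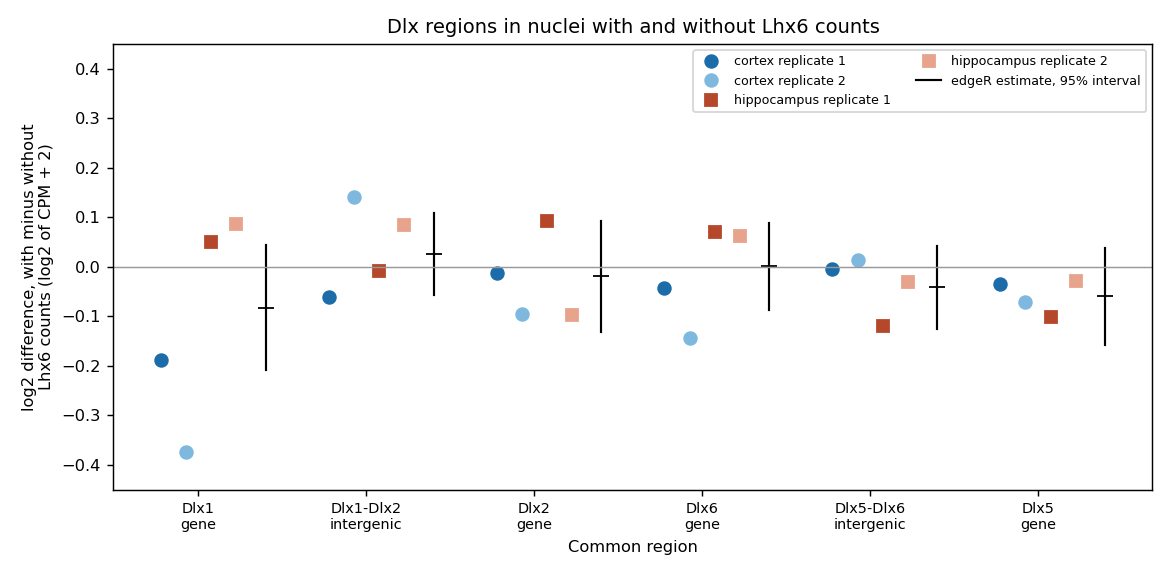
Log2 difference between nuclei with and without Lhx6 counts at the 6 Dlx regions, in log2 of CPM plus 2. Points are libraries, circles for cortex and squares for hippocampus, and the black lines are edgeR estimates with 95% intervals. The Dlx1 gene region lies at -0.19 and -0.37 in cortex and at 0.05 and 0.09 in hippocampus, and all 6 intervals include 0.

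The share of nuclei with any Dlx cut site was 69.7% with and 68.4% without Lhx6 counts, averaged over libraries, at the depth of 2000. The difference of 1.32 points was positive in 3 of 4 libraries (exact sign-flip permutation p = 0.375, two-sided). Without thinning the difference was 12.9 points and positive in 4 of 4 libraries (exact p = 0.125), when nuclei with Lhx6 counts were also the deeper ones. After thinning to 5000 it was 2.89 points, positive in 4 of 4 libraries (exact p = 0.125).

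The deposited motif counts gave each nucleus a count for each of 579 motifs, and 5 of them were DLX motifs (Dlx1, Dlx2, Dlx3, Dlx4 and DLX6). None was named for Dlx5. The Dlx3 and Dlx4 motifs shared the same total in cortex replicate 2, 1711804, so motifs of this family are not independent measurements. The Dlx1 motif stood apart from the other 4. It had a mean of 586 CPM of all motif counts, higher than 53.7% of motifs, while the Dlx2, Dlx3, Dlx4 and DLX6 motifs had 4981, 5253, 5267 and 4524 CPM and ranked above 92.9%, 93.3%, 93.4% and 90.2%.

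Motif levels differed more within cortex than between areas. The Dlx2 motif had 6687 and 2531 CPM in cortex replicates 1 and 2 and 6052 and 4654 CPM in hippocampus replicates 1 and 2. The Dlx3 motif had 6846 and 2961 CPM against 6282 and 4925 CPM, and the Dlx4 motif 6823 and 2961 CPM against 6255 and 5031 CPM. The DLX6 motif had 5569 and 2375 CPM against 5091 and 5060 CPM. For these 4 motifs cortex replicate 1 was the highest library and cortex replicate 2 the lowest, by 2.30-fold to 2.64-fold. The Dlx1 motif had the opposite order in cortex, 512 and 782 CPM, with 484 and 566 CPM in hippocampus.

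No DLX motif differed between areas beyond the spread between libraries. Log2 differences were -0.30 for Dlx1, 0.22 for Dlx2, 0.19 for Dlx3, 0.21 for Dlx4 and 0.35 for DLX6, with intervals from -1.18 at the lowest to 1.60 at the highest. By edgeR 0 of 5 passed, against 0% of 579 motifs, with 1 motif and no DLX motif at an unadjusted p under 0.05, and DESeq2 and limma called 0. All 5 overlapped between the areas, against 5.18% of motifs with hippocampus wholly higher and 10% wholly lower. Without cortex replicate 1 the DLX6 and Dlx2 motifs were higher in hippocampus by 1.10 and 1.08 on the log2 scale (adjusted p = 0.037 and 0.038), with the lone cortical library assumed to vary like the others. For the Dlx2, Dlx3, Dlx4 and DLX6 motifs the libraries ranked as their total cut sites in peaks did. They did not rank as median cut sites per nucleus or peak number did. The Dlx1 motif was highest in cortex replicate 2, the library with the fewest cut sites and peaks. The part of depth and peak number was not tested.

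**Figure D5:**
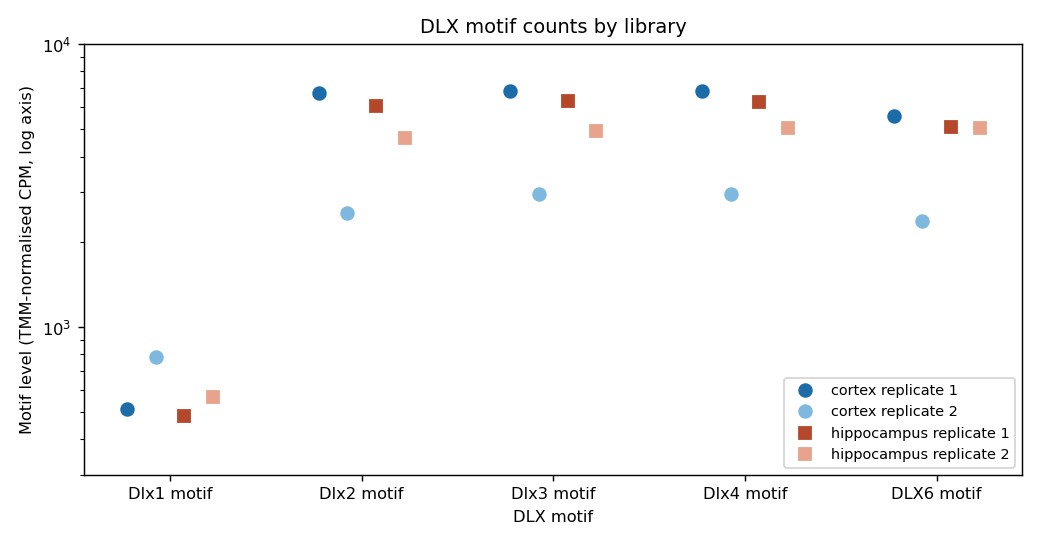
DLX motif levels (TMM-normalised CPM of motif counts, log axis) by library, circles for cortex and squares for hippocampus. For the Dlx2, Dlx3, Dlx4 and DLX6 motifs cortex replicate 1 is highest (5569 to 6846 CPM) and cortex replicate 2 lowest (2375 to 2961 CPM).

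Within libraries, log2 differences of the DLX motifs between nuclei with and without Lhx6 counts lay between -0.02 and 0.02. Motif counts were used whole, so cut sites at Lhx6 that set the split may be part of them, which was not tested. The Dlx3 motif had 6819, 2924, 6308 and 4946 CPM with and 6868, 2970, 6306 and 4920 CPM without, in the order used above. It was lower with Lhx6 counts in both cortical libraries and higher in both hippocampal ones. By edgeR 2 of 5 passed, both lower, against 37.7% of all motifs in either direction and 29.4% lower, Dlx3 with a change of -0.38% (adjusted p = 0.024) and Dlx4 with -0.40% (adjusted p = 0.024). With limma, added after the data were seen because edgeR gave 74 of 579 motifs a negative statistic, none of the 5 passed, against 23.1% of motifs, and Dlx3 and Dlx4 had adjusted p of 0.34 and 0.30. The Dlx2 motif was among the 74, so its edgeR test has no value. By limma its log2 difference was 0.003 (interval -0.005 to 0.010). DESeq2 gave adjusted p of 0.95 and 0.92 for Dlx3 and Dlx4. For the interaction with area edgeR called 0 of 5 and 0% of motifs, but gave 195 of 579 motifs a negative statistic. The Dlx3 and Dlx4 motifs were among these, so their edgeR interaction test has no value. By limma 0 of 5 and 0.864% of motifs passed, with 3 of 5 and 56 of 579 at an unadjusted p under 0.05.

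Genes known from other work to act above or below Dlx were then listed. The regulators Gsx1 and Gsx2, homeobox genes of progenitors, had no common region. Of 17 genes reported downstream of Dlx, 16 were tested and Lhx8 was not. Between hippocampus and cortex 0 of the 16 passed the test, beside 0% of all genes. The median log2 difference of the list was 0.25, beside -0.01 over all genes, with Gad1 at 0.29, Gad2 at 0.56 and Slc32a1 at 0.22. The largest differences were those of Sp8 (-1.45, interval -4.93 to 1.98), at 0.153 to 7.78 CPM over the 4 libraries, Nrp2, a receptor of guidance cues (0.99, interval 0.31 to 1.68), Zeb2 (0.62, interval -0.51 to 1.74) and Npas1 (0.61, interval 0.13 to 1.09).

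With Lhx6 counts 2 of the 16 were higher and 1 lower, beside 1.94% and 1.57% of all genes, and the list's median was 0.05 beside 0.00 over all genes. Ackr3, a chemokine receptor that guides migrating interneurons, was higher by 0.27 (edgeR adjusted p = 2.3e-05). Sp8, a zinc-finger factor of the caudal lineage, differed by -0.82 (adjusted p = 0.034). Sp8 is also among the lineage markers given above. Of other homeobox genes of these neurons, Prox1 was lower with Lhx6 counts, with a log2 difference of -0.35 (adjusted p = 1.2e-04), and Pou3f4 had -0.22 (adjusted p = 0.29). No gene of these lists passed the interaction test.

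The remaining linked pair of the family, Dlx3 and Dlx4, is known from skin, placenta and tooth. It had no common region. Dlx3 had 3 peaks with 1199 cut sites in cortex replicate 1, none in cortex replicate 2, 2 peaks with 219 in hippocampus replicate 1 and 1 peak with 182 in hippocampus replicate 2. Dlx4 had 1 peak with 107 cut sites, in cortex replicate 1. Peaks at Dlx3 and Dlx4 held at most 10.2 CPM per library in sum at either gene, while the single Dlx1 gene region peak of cortex replicate 1 held 116 CPM on the same scale. These sums are not per kb. In that library the Dlx3 peaks covered 1474 bp and the Dlx1 peak 8774 bp.

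Across the 8 sums of nuclei with and without Lhx6 counts, the genes most like Dlx1 and Dlx2 together, among 7426 with at least 50 CPM and over 100 kb away, were Chrna7 (Pearson r = 0.960), Hist1h2be (0.949) and Iqsec3 (0.948). Those most like Dlx5 and Dlx6 were Prkca (0.995), Mmp16 (0.992) and Fbxo41 (0.991). The motifs most like the summed DLX motifs, among 574 others, were Lhx4 (0.999), LBX1 (0.999) and RORA (0.998). The 8 sums come from 4 libraries and share their depth and peak calls by pairs, and 1% of genes reached r of 0.875 with the first pair and 0.958 with the second, so these values describe likeness only.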

How the data were processed

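Single-nucleus ATAC-seq (10x Genomics) was deposited as whole-number counts of cut sites per peak and nucleus and of counts per motif and nucleus, one set per library. Per the submitters' processing notes these deposited counts came from Cell Ranger ATAC 1.2.0 with GRCm38 (mm10), with no normalization by the authors and with peaks called in each library separately. Most entries (78.3% to 83.9%) were even, since a fragment gives a cut site at each end, so cut sites are not independent molecules and intervals on shares cover counting error only. How motif counts were made from peaks was not given in the sources used here. The paper supplied with the series describes another experiment, so its methods gave no design.

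Peaks of the 4 libraries overlapping by 1 bp or more were merged (185260 regions), and the 46698 common regions with a peak of every library were tested. Gene values summed common regions over GENCODE M21 genes (GRCm38) and 2 kb upstream. Counts were summed over nuclei, since nuclei are not replicates. Hippocampus and cortex were compared over 4 sums, 2 against 2, and Lhx6 status over 8 sums with library as a block. Regions and genes within 10 kb of Lhx6 were left out of the tests of Lhx6 status. Motif counts were used whole, as deposited, so they may include the cut sites at Lhx6 that set the split. The test was edgeR 4.0.16 in R 4.3.3 (two-sided quasi-likelihood F test with robust fitting, filterByExpr, TMM scaling, prior count 2, 95% intervals) with Benjamini-Hochberg adjustment over all features and a threshold of 0.05. DESeq2 1.42.0 and limma 3.58.1 were alternatives. CPM values are TMM-normalised unless given per peak or per kind of nucleus, where they are scaled to the library's or the nuclei's own total. Shares of nuclei were compared by exact permutation after thinning to 2000 cut sites. The edgeR tests of brain area and of Lhx6 status were also run on simulated counts.

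TAATTA was searched in the reference as these 6 letters, which are their own reverse complement, and sequences are from GRCm38 and RefSeq GRCm38.p6. The genes, lists and markers were chosen with earlier results of these data known. Some listed genes enter the counts and sums but are not reported here. Named were all members, other listed genes, the 3 most similar genes or motifs per pair, and sequences at region middles, promoters and TAATTA pairs. Other settings tried were the tool, low-count filter, blocks, thinning, peak coverage, kinds of nuclei and leaving out each library.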

Additional observations from a re-analysis of the deposited data

Results flagged for a closer look

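The Dlx1 motif difference between nuclei with and without Lhx6 counts was -0.011 and -0.009 in cortex replicates 1 and 2 and -0.011 in hippocampus replicate 1 on the log2 scale, but 0.024 in hippocampus replicate 2. That library's gap to the nearest other was 0.932 of the whole range. Chance sets about 1 in 20 groups of 4 apart in this way, and 15 sets were looked at.

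The difference between nuclei with and without Lhx6 counts at the Dlx1 gene region differed between the brain areas, by 0.33 on the log2 scale (hippocampal minus cortical difference, edgeR interaction test with Benjamini-Hochberg adjusted p = 0.028). Both cortical libraries were lower with Lhx6 counts (-0.19 and -0.37) and both hippocampal ones higher (0.05 and 0.09). Of 15 interactions looked at over the Dlx genes, regions and motifs it was the only one past the threshold, and a second random thinning gave 0.06 (adjusted p = 1.00). Among the 15, the edgeR tests of the Dlx3 and Dlx4 motifs gave a negative statistic and have no value.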

How the results depend on the processing

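Between hippocampus and cortex, no Dlx gene or region passed the test under any setting tried. The count of all genes called (0) became 21 with DESeq2, and 0 to 365 when a library was left out (365 without cortex replicate 1 and 85 without cortex replicate 2). The count of regions (0) became 352 with DESeq2 and 0 to 3193 when a library was left out (3193 without cortex replicate 1 and 855 without cortex replicate 2), and that of motifs (0) 0 to 116. With the replicate number as a block (pairing within number), genes, regions and motifs called stayed at 0. Same-numbered libraries did not deviate together at genes (r = -0.100) or regions (r = -0.000585), but did for motifs (r = 0.682), and a number in the titles is their only link. A crossed replicate block, added after the data were seen, called 201 genes, 909 regions and 0 motifs.

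For Lhx6 status, no Dlx gene passed under any setting. All genes called (514) were 221 with DESeq2, 18 with at least 2 Lhx6 counts, 237 among nuclei with Gad1, Gad2 or Slc32a1 counts, 886 at a depth of 5000, 1810 without thinning, 0 without the library block and 225 to 502 with a library left out. Settings added after the data were seen gave 181 in cortex, 233 in hippocampus and 312 with a second thinning. Regions called (2133) were, in turn, 91 with at least 2 Lhx6 counts, 1223 among nuclei with GABA gene counts, 4388 at 5000, 6311 without thinning, 0 without the block, 825 in hippocampus and 838 to 1749 with a library left out. Motifs called (218) were 136 with DESeq2, 134 with limma, 82 with at least 2 counts, 107 among nuclei with GABA gene counts, 53 without thinning, 0 without the block, 0 in cortex, 88 in hippocampus and 67 to 185 with a library left out.

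The Dlx1 gene region passed for Lhx6 status in cortex alone (-0.27, adjusted p = 0.0073) and at 5000 (-0.12, adjusted p = 0.031), and the DLX6 motif at 5000 (-0.0084, adjusted p = 0.023) and with the second thinning (-0.0092, adjusted p = 0.045). The Dlx3 and Dlx4 motif differences reversed in hippocampus alone (0.00186 and 0.00136) and without cortex replicate 2 (0.00075 and 0.00034). With a library left out they ranged from -0.00826 to 0.00075 and from -0.00859 to 0.00034, none past the threshold. Interaction calls were 1, 2, 39 and 58 genes (18 in the test as described) with DESeq2, the second thinning, 5000 and no thinning, and 1 to 34 with a library left out. They were 20, 47 and 194 regions (331) with DESeq2, the second thinning and no thinning, and 49 to 233 with a library left out. They were 1 and 5 motifs (0) with DESeq2 and limma, and 0 to 91 with a library left out. The Lhx6 difference in share of nuclei with a Dlx cut site was 12.9 points without thinning and 0.453 to 2.52 with a library left out, and the area difference -6.11 to 2.32. The causes were not tested.

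With 2 libraries an area, and cortex replicates 1 and 2 the deepest and shallowest, edgeR called none of the 188 genes with an estimated area difference over 2-fold. A count exists only inside a library's own peaks.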

Other observations

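The nuclei with neither a cut site in Gad1, Gad2 or Slc32a1 nor an oligodendrocyte-lineage lead numbered 35 and 1001 in cortex replicates 1 and 2 and 796 and 339 in hippocampus replicates 1 and 2. Their Dlx1-Dlx2 level was 133, 334, 283 and 248 CPM and their Dlx5-Dlx6 level 204, 245, 318 and 215 CPM. At Dlx1-Dlx2 each lay below the nuclei with a GABA gene cut site of its library, and in 3 of 4 libraries above the glial-led nuclei. At Dlx5-Dlx6 each also lay below the nuclei with a GABA gene cut site. The glial-led nuclei had 222, 253, 310 and 109 CPM there. The nuclei with neither thus lay below the glial-led ones in both cortical libraries and above them in both hippocampal ones.

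The peak of 414 bp upstream of Dlx2, outside the regions tested, held 407 cut sites in cortex replicate 1 (3.47 CPM of the library), 220 in hippocampus replicate 1 (3.04 CPM) and 256 in hippocampus replicate 2 (5.34 CPM), and contains 1 TAATTA match.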
